A study of Mus musculus with 2 samples.

Results

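Cluster 0 is the authors' cluster of colonic epithelial cells that, in the wild-type library, carried the highest level of the stem cell marker Lgr5. Its cells were chosen by the deposited cluster number and then by 2 limits on measured counts. Cells were dropped if 11 pancreatic enzyme genes together held at least 1% of their unique molecular identifiers (UMIs, counts of captured RNA molecules). Cells were also dropped if they held at least 2 UMIs summed over Spib, Msln, Il4i1, Plb1 and H2-M2. These limits kept 1669 of 7863 cells, which were 1068 of 4210 cells (25.4%) labelled Mettl14 WT and 601 of 3653 cells (16.5%) labelled Mettl14 KO. Before the limits cluster 0 held 1106 WT and 816 KO cells. The enzyme limit took 33 WT cells and 0 KO cells, and the limit on the 5 genes took 5 WT and 215 KO cells.

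Both groups were colonic epithelial cells of C57BL/6 mice, live and positive for EpCAM, sorted by flow cytometry and profiled by 10x 3' single-cell RNA sequencing, and the series text places them at 2 weeks without saying from when. Each genotype was 1 library. The labels do not give the number of animals pooled, their age, the Cre driver or the deleted exons. No difference below therefore has a replicate check, and no test or p-value is given. Levels are in CPM, the UMIs of a gene per 1000000 UMIs, from counts summed over the kept cells of a library, and where 2 levels are set against each other the WT level comes first. The ratio given for a gene is the log2 of its KO level divided by its WT level, and the 95% interval in square brackets covers counting error only. Since the clustering used all genes, levels that set cluster 0 apart from the other clusters are a description.

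Stem cells at the base of a colonic crypt divide throughout life and replace the epithelium. Wnt ligands and R-spondins keep them undifferentiated, Lgr5 being an R-spondin receptor and a Wnt target, while Notch signals hold back the secretory fate and BMP signals drive cells to differentiate. Their daughters divide, move up the crypt and become absorptive colonocytes or mucus-secreting goblet cells. METTL14 is the RNA-binding partner of METTL3 in the complex that writes N6-methyladenosine (m6A) on RNA.

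The limits cut through a gradual range in the KO library. The enzyme share was at most 0.114% in kept WT and 0.122% in kept KO cells, and at least 1.75% in the dropped WT cells, so that limit fell in a gap. The limit on the 5 genes did not, as 9 kept WT and 123 kept KO cells held exactly 1 UMI, and 1 dropped WT and 38 dropped KO cells held exactly 2. Among KO cells of cluster 0, the chemokine gene Ccl20 stood at 21.1 CPM in cells with 0 UMIs of the 5 genes, 127.6 CPM with 1, 139.6 CPM with 2 and 2000.2 CPM with more.

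By Lgr5 the stem-like label held in the WT library and was weaker in the KO library. Lgr5 (chromosome 10, 115450311 to 115587780, GRCm38) stood at 126 CPM in the kept WT cells, ahead of 91.2 CPM in cluster 3 and 20.4 to 70.2 CPM in the other clusters. In the KO library it stood at 12.04 CPM in the kept cells and 11.8 CPM in cluster 3, a difference within counting error. Smoc2, a secreted matricellular protein of crypt base cells, was highest in cluster 3 of both libraries, at 51.5 and 21.1 CPM, and second in the kept cells, at 37.3 and 12.6 CPM. The orphan nuclear receptor gene Nr2e3 and the glucuronosyltransferase gene Ugt2b5 were highest in the kept cells of both libraries.

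Cps1, the rate-limiting enzyme of the urea cycle, had its highest level in the kept cells in 1 library only. It stood at 80.6 CPM in the kept WT cells, the highest of the 7 sets, and at 1.61 CPM in the kept KO cells, where it ranked 4 of 7. Of 14 stem cell markers, the kept cells were highest for 6 in WT and for 7 in KO. Lgr5, Smoc2, Nr2e3, Cps1 and Ugt2b5 were put among the 14 as markers of this cluster with earlier results known, so their ranks are a description. Of these, all but Smoc2 were among the 6 in WT. Ascl2, the transcription factor that maintains crypt stem cells, was highest in the kept cells of both libraries, at 59.7 and 70.6 CPM, but within counting error of cluster 3, at 58.5 and 68.4 CPM. The summed markers stood at 1651 CPM in the kept WT cells, the highest sum, and at 1248 CPM in the kept KO cells, below 1535 CPM in cluster 1 and 1261 CPM in cluster 3. In what follows the cells are therefore called the kept cells.

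**Figure D1:**
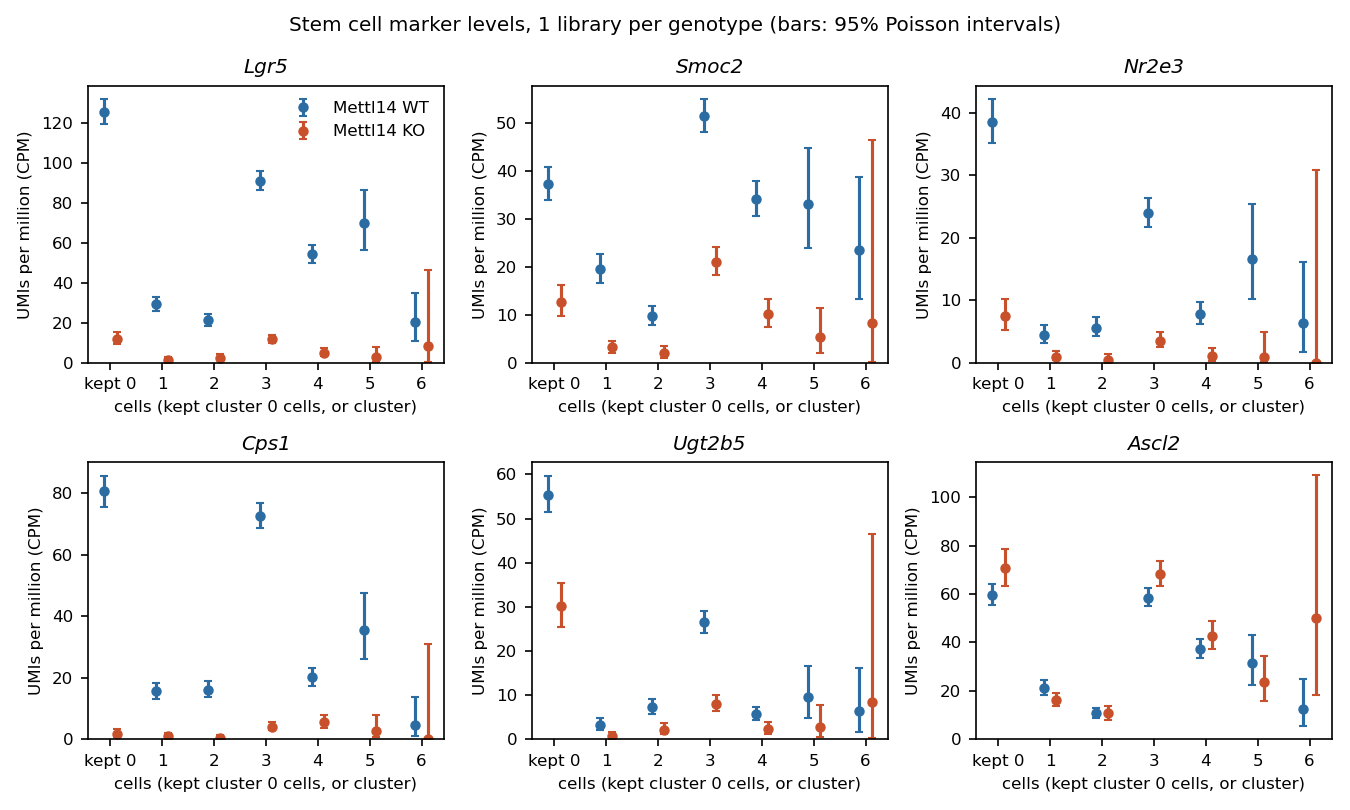
Levels of 6 stem cell marker genes (y axis, CPM) in the kept cluster 0 cells and in clusters 1 to 6 (x axis), for the Mettl14 WT (blue) and Mettl14 KO (orange) libraries, with 95% Poisson intervals from counting error. Lgr5, Nr2e3, Cps1 and Ugt2b5 peak in the kept cells of the WT library, Smoc2 peaks in cluster 3, and Ascl2 is at least as high in the KO as in the WT library in the kept cells.

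The kept WT cells held 12499225 UMIs and the kept KO cells 4984025, with medians of 10948 and 7564 UMIs and 2977 and 2400 detected genes. Mitochondrial UMIs had a median share of 12.3% and 12.5%. No barcode of a kept cell was shared by the libraries. Thinned to 3000 UMIs each, the 1019 WT and 573 KO cells deep enough had medians of 1243 and 1289 genes. Xist-bearing cells, with 3 or more Xist UMIs and none from Y-linked genes, made up 47.5% of the WT and 54.7% of the KO kept cells, so each library held cells of both sexes, and 6.46% and 4.16% held UMIs of both kinds.

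The kept cells were mixed, with stem-like, absorptive, secretory and immune-gene cells among them. Leiden clustering on values scaled within each library split them into 7 sub-clusters, which are described by their leading genes. Sub-cluster 1 (378 WT and 215 KO cells) was led by Prelp, Fut9 and Smoc2, and sub-cluster 2 (229 and 110 cells) by Hoxb7, Hoxb8 and the cyclin gene Ccnb2. Together they took in 56.8% of WT and 54.1% of KO kept cells. Sub-cluster 3 (201 and 122 cells) was led by the colonocyte carbonic anhydrase gene Car1, Dpep1 and Muc3. Sub-cluster 4 (171 and 81 cells) was led by the DNA replication genes Clspn, Esco2 and Pclaf.

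The remaining sub-clusters were small. Sub-cluster 5 (42 WT and 44 KO cells) was led by the goblet cell genes Fcgbp and Tff3, and sub-cluster 6 (24 and 21 cells) by the macrophage complement genes C1qb, C1qa and C1qc. Sub-cluster 7 (23 and 8 cells) had medians of only 3193 and 2547 UMIs and was led by genes of respiratory subunits such as Atp5k and Cox8a. Lgr5 still stood at 139.7 CPM in sub-cluster 6 of the WT library, against 22.3 CPM in sub-cluster 3.

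Lgr5 and Cps1 did not follow each other across the WT sub-clusters. Lgr5 was at 158 CPM in sub-cluster 1, 202 CPM in sub-cluster 2 and 133 CPM in sub-cluster 4. Cps1 was at 9.31, 258 and 102 CPM in the same 3 sub-clusters, so it was high in the second and nearly absent from the first. In the KO library Lgr5 was at 14.7, 24.7 and 16.4 CPM there and Cps1 at 0, 4.70 and 1.36 CPM. The KO level was below the WT level of both genes in each of these sub-clusters.

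**Figure D2:**
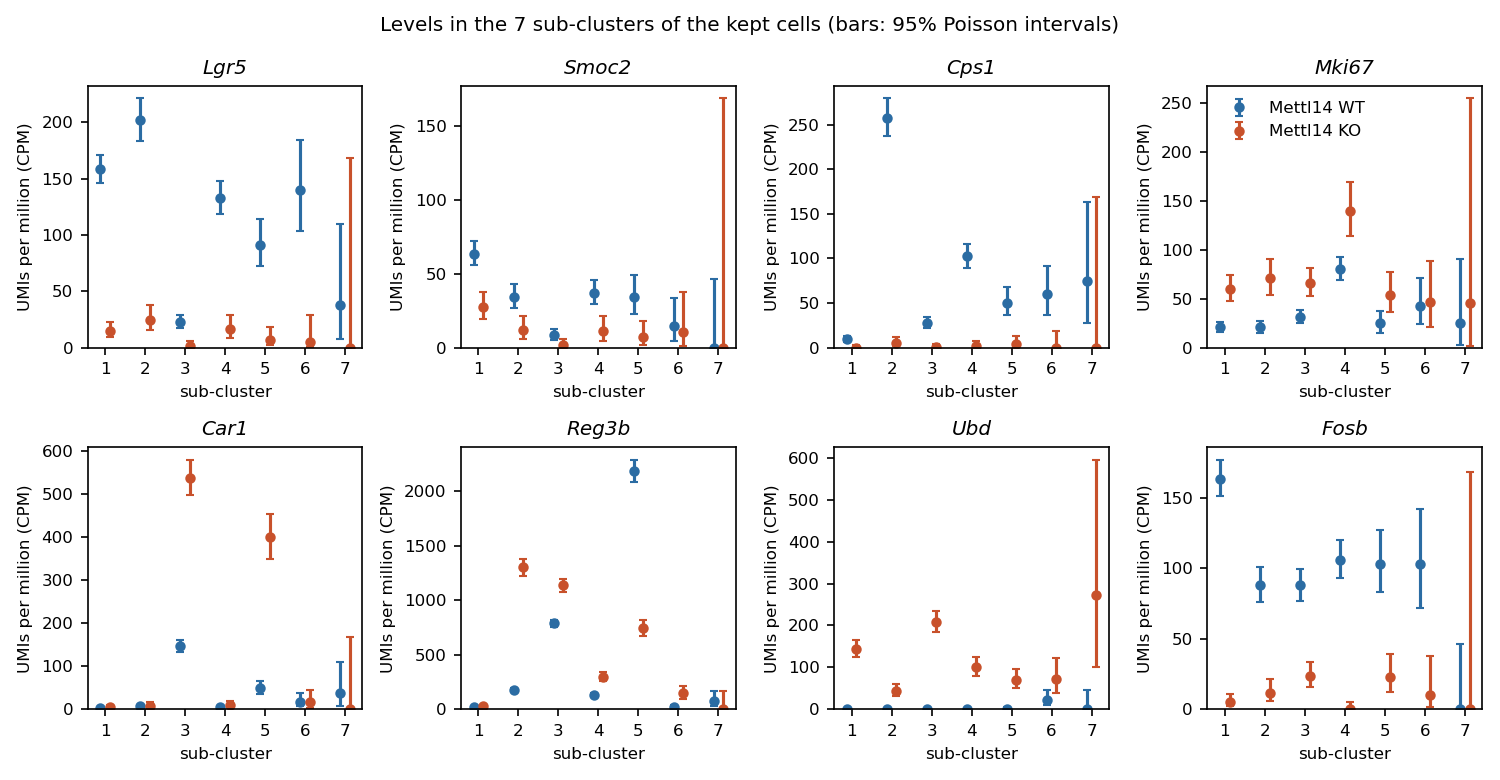
Levels of 8 genes (y axis, CPM) in the 7 sub-clusters of the kept cells (x axis) for the Mettl14 WT (blue) and Mettl14 KO (orange) libraries, with 95% Poisson intervals from counting error. Lgr5 and Fosb are lower and Ubd is higher in the KO library in sub-clusters 1 to 5, Cps1 is highest in sub-cluster 2 of the WT library, and Car1 lies mainly in sub-clusters 3 and 5.

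Markers of other cell types were present at differing levels in the 2 libraries. The summed level of 9 goblet markers was 1045 CPM in the WT and 2140.2 CPM in the KO kept cells, against 33149 and 43814 CPM in cluster 1. The sum of 10 colonocyte markers was 250.3 and 388 CPM, and that of 9 cycling markers 396 and 423 CPM. The sum of 14 immune markers was 79.4 and 136 CPM, with 2 of the 14 at 0 in each library, and that of 5 M cell markers 17.3 and 48.6 CPM. Spib and Msln were among these M cell markers and also among the genes used to drop cells, so that limit bears on their sum directly. Among the immune markers the mast cell protease gene Mcpt1 had 202 WT UMIs, all in 1 cell of sub-cluster 6, and 0 KO UMIs, which is at least 26.8-fold lower against a floor of 3 counts. The sum of 7 stromal markers was 33.04 CPM in the WT and 1.61 CPM in the KO library, where 4 of the 7 were at 0. Without the cells that held at least 3 immune or stromal UMIs, 435 genes were at least 2-fold higher and 171 lower, beside 437 and 170 in all kept cells. Many lists below are also given for sub-clusters 1 and 2, an alternative chosen after seeing the data.

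The targeted gene did not differ detectably in the kept cells. Mettl14 (chromosome 3, 123368297 to 123386108, GRCm38) stood at 10.3 against 8.63 CPM, from 129 and 43 UMIs, a log2 ratio of -0.26 [-0.79 to 0.25]. In clusters 1 to 6 the ratio was -1.17 [-1.44 to -0.89]. Mettl3, which encodes the catalytic subunit, stood at 14.2 against 10.4 CPM, a ratio of -0.44 [-0.92 to 0.013]. The interval of Mettl14 in the kept cells lay above that of clusters 1 to 6, but this depended on the cells included. It also lay above in the Xist-bearing cells (0.14 [-0.51 to 0.78]) and in sub-clusters 1 and 2 (-0.089 [-0.82 to 0.60]). The intervals overlapped in cells with Y-linked UMIs and no Xist (-0.80 [-2.20 to 0.36]). They also overlapped once cells with 1 UMI of the genes used to drop cells were left out (-0.52 [-1.16 to 0.069]). The counts therefore do not decide whether the kept cells shared the lower level of clusters 1 to 6. The 3' tags may lie outside the deleted part of Mettl14, in which case its level is only a limited check on the label. The words WT and KO below stand for the libraries so labelled.

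Over all genes the kept cells differed more often toward higher levels in the KO library. Of 6042 genes with at least 50 UMIs over both libraries and at least 20 CPM in one, 437 (7.23%) were higher by 2-fold or more and 170 (2.81%) lower by as much, each with an interval that left out equality. This rule goes by size alone. Sub-clusters 1 and 2 alone gave 408 (6.88%) and 204 (3.44%) of 5929 genes. The median of all 10490 genes with at least 50 UMIs was 0.01.

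The genes ranked highest in the KO library were mostly near absence in the WT cells. Ncf4, encoding the p40 subunit of the phagocyte NADPH oxidase, had 2 UMIs in the WT and 241 in the KO library, or 0.160 CPM in WT and 48.4 CPM in KO cells, a ratio of 8.24 [6.37 to 11.29]. Ubd, a ubiquitin-like modifier induced by TNF and interferon-γ, stood at 0.880 CPM in WT and 125 CPM in KO cells (7.15 [6.31 to 8.16]). It was spread over the KO cells: 235 of the 601 held a Ubd UMI, and the 10 richest cells held 15.04% of the UMIs. Serpina10, a serpin that inhibits coagulation proteases, stood at 1.12 against 66.6 CPM (5.89 [5.13 to 6.78]), and Igfals, a carrier subunit for insulin-like growth factors, at 0.560 against 25.3 CPM (5.50 [4.41 to 6.84]).

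Interferon and p53 target genes followed in that ranking. Rtp4, an interferon-induced chaperone, was at 1.84 against 37.5 CPM (4.35 [3.72 to 5.04]), and Phlda3, a p53 target that restrains AKT, was at 4.16 against 69.8 CPM (4.07 [3.65 to 4.52]). Itih5, a hyaluronan-binding protein of the matrix, was at 6.48 against 85.3 CPM (3.72 [3.37 to 4.08]). The vesicle protein gene Vamp5 (4.71), the lactoperoxidase gene Lpo (4.19) and the cytokine-like gene Fam3b (4.16) were also among the 12 highest. Zg16, a goblet cell lectin, was the exception in its spread: its ratio was 3.46 [3.10 to 3.83], but 10 cells held 65.9% of its KO UMIs, and the ratio in sub-clusters 1 and 2 was 1.80. With the whole of cluster 0 in place of the kept cells Zg16 turned to -0.76.

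Genes ranked lowest in the KO library included the stem cell marker itself, metabolic enzymes and immediate early genes. Lgr5 stood at 126 CPM in WT and 12.04 CPM in KO cells, from 1572 and 60 UMIs (-3.39 [-3.78 to -3.01]). Cps1 stood at 80.6 CPM in WT and 1.61 CPM in KO cells, from 1007 and 8 UMIs (-5.65 [-6.87 to -4.67]). Both genes were named as markers of these cells with earlier results known, so their ratios are a description. Otc, the next enzyme of the urea cycle, stood at 33.04 against 4.41 CPM (-2.90 [-3.59 to -2.29]). Gk, encoding glycerol kinase, was at 27.1 against 3.81 CPM (-2.83 [-3.58 to -2.17]).

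Gpc3, a glypican that binds Wnt and hedgehog ligands, was at 27.2 against 2.01 CPM (-3.76 [-4.83 to -2.86]), and Timp3, a matrix-bound inhibitor of metalloproteases, at 72.96 against 8.03 CPM (-3.18 [-3.68 to -2.73]). The folate receptor gene Folr1 was at 45.9 against 5.22 CPM (-3.14 [-3.76 to -2.57]), and Cyr61, a matricellular protein, at 39.3 against 5.02 CPM (-2.97 [-3.61 to -2.39]). Clu, the clusterin gene, was at 28.2 against 3.21 CPM (-3.13 [-3.96 to -2.41]), but its ratio was 0.12 in the whole of cluster 0 and 0.53 when only the enzyme-rich cells were dropped. The limit on the 5 genes therefore bears on the ratio of Clu directly.

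**Figure D3:**
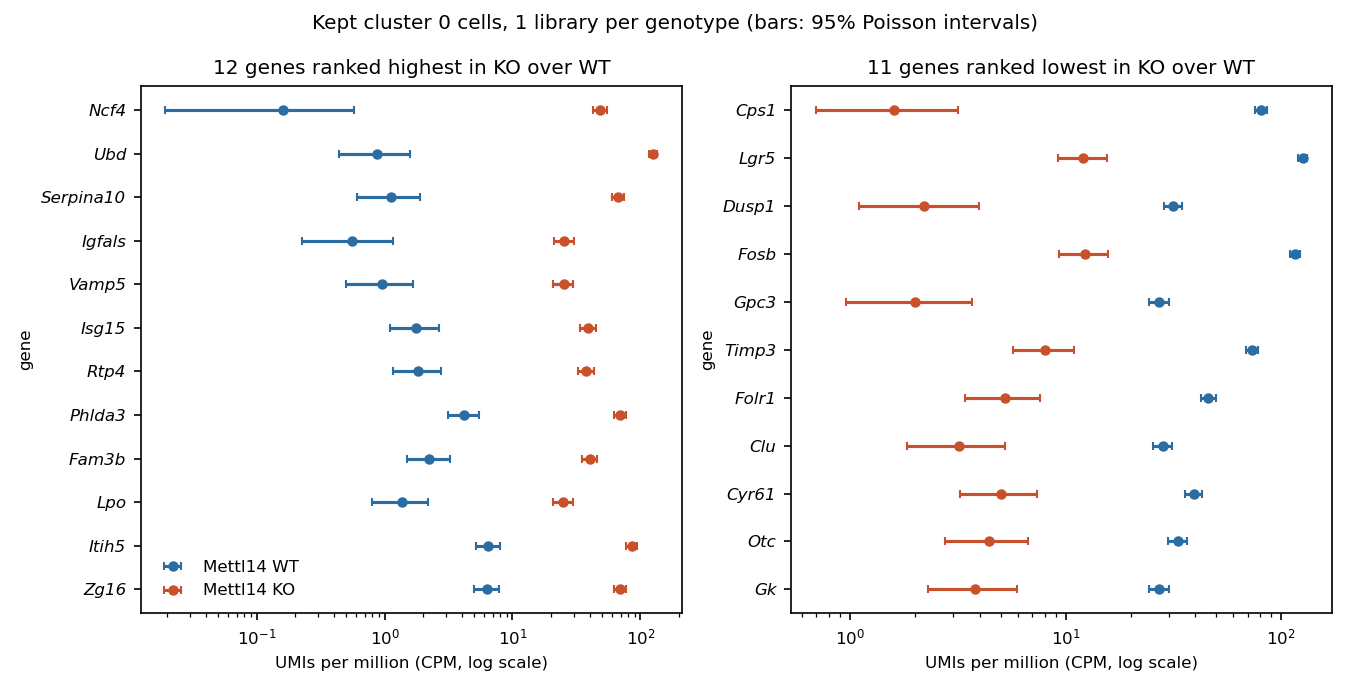
Levels in the kept cells (x axis, CPM on a log scale) of the 12 genes ranked highest (left) and 11 of the 12 ranked lowest (right) in KO over WT by the interval bound nearest 0, with 95% Poisson intervals from counting error. For each of the 23 genes the WT (blue) and KO (orange) intervals do not overlap, and Ncf4 rests on 2 WT UMIs.

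In thinned cells the shares of cells with a UMI showed the same contrast for Lgr5 and Ubd. Lgr5 was found in 28.6% of thinned WT cells (25.8 to 31.4) and 3.84% of thinned KO cells (2.42 to 5.76), and unthinned in 53.8% and 8.32%. Cluster 2, which was led by goblet markers and had the lowest Lgr5 shares of the clusters compared, gave 3.51% (2.26 to 5.18) and 0.593% (0.122 to 1.72) thinned, and 11.8% and 1.92% unthinned. Its median depths were 12674.5 WT and 9241 KO UMIs, beside 10948 and 7564 in the kept cells. Cluster 4, whose colonocyte markers were high in both libraries, gave 12.4% and 2.08% thinned (1.003 to 3.80 in KO). Cluster 3 gave 22% and 3.42% thinned (2.32 to 4.85 in KO). The interval of the kept KO share lay above that of cluster 2 and overlapped those of clusters 3 and 4. Ubd was found in 0.196% and 25.3% of thinned kept cells. In the KO library its thinned share was 3.75% in cluster 2, 21.2% in cluster 3 and 19.8% in cluster 4.

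Members of the stem cell marker list did not move together. All lists were chosen with earlier results of these data known, and a member is called higher or lower past 1.5-fold if its interval leaves out equality. Over all 10490 measured genes 17.0% were higher and 11.7% lower by that rule. Of 20 measured stem cell markers 3 were higher and 4 lower, with a median of 0.036. Besides Lgr5, Smoc2 was lower at 37.3 against 12.6 CPM (-1.56 [-1.96 to -1.18]), as were Hopx, a homeodomain gene of reserve stem cells, at 141 against 48.4 CPM (-1.55 [-1.75 to -1.35]), and the cyclin-dependent kinase gene Cdk6 (-0.60 [-0.74 to -0.46]). Mex3a, an RNA-binding protein of slowly cycling stem cells, was higher at 11.3 against 30.1 CPM (1.42 [1.07 to 1.76]), and so were Sox4 (0.69 [0.61 to 0.76]) and Tnfrsf19 (1.12 [0.30 to 1.93]). Ascl2 (0.24 [0.056 to 0.43]), Ephb2 (0.28), Sox9 (-0.27) and Lrig1 (-0.38) passed neither limit.

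Lgr5 was lower in the KO library in cells of each sex, by differing amounts. Its ratio was -4.07 in the Xist-bearing cells and -2.84 in the Y-bearing cells, which held Y-linked UMIs and no Xist. In sub-clusters 1 and 2 it was -3.23, and the list's median there was -0.11.

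Wnt receptors and feedback genes were lower in the KO library more often than measured genes in general. Of 22 measured genes 8 were lower, beside 11.7% of all genes, and 3 higher, with a median of -0.41, and -0.44 in sub-clusters 1 and 2. Rnf43, a ubiquitin ligase that removes Frizzled receptors and is itself a Wnt target, stood at 66.4 against 21.7 CPM (-1.62 [-1.92 to -1.32]). Its relative Znrf3 was at 20.8 against 13.6 CPM (-0.61 [-1.02 to -0.22]), and the receptor gene Lgr4 at 96.6 against 62.4 CPM (-0.63 [-0.82 to -0.45]). The Frizzled receptor gene Fzd7 (-1.40 [-2.07 to -0.78]), the transcription factor gene Tcf7 (-1.30 [-2.31 to -0.41]), the Wnt target Myc (-0.98 [-1.24 to -0.73]) and Cdca7 (-1.03 [-1.22 to -0.84]) were lower too.

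Other Wnt genes stood at similar or higher levels. Axin2, the standard Wnt feedback gene, was at 55.6 against 37.3 CPM (-0.58 [-0.82 to -0.34]), just inside the 1.5-fold limit. Ccnd2, a D-type cyclin, was higher at 294 against 606 CPM (1.04 [0.97 to 1.11]), as were Tcf7l1 (0.87 [0.42 to 1.31]) and Fzd6 (0.74 [0.22 to 1.26]). Nr2e3, which was placed on this list, was lower at 38.6 against 7.42 CPM (-2.38 [-2.90 to -1.89]). In clusters 1 to 6 the median of the list was -0.51 and the ratio of Rnf43 was -1.51.

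Several feedback genes of the EGF receptor pathway were lower, and its ligands were split. EGF receptor signals let crypt stem cells divide, and Sprouty, Spred and Errfi1 proteins and the phosphatase gene Dusp6 limit them. Of 17 measured genes 6 were lower and 3 higher (median -0.39, and -0.48 in sub-clusters 1 and 2). Spry2 stood at 31.5 against 10.03 CPM (-1.65 [-2.11 to -1.22]), Errfi1 at 47.2 against 18.3 CPM (-1.37 [-1.71 to -1.05]) and Dusp6 at 12.6 against 5.02 CPM (-1.32 [-1.996 to -0.71]). Of the ligands, Hbegf was lower at 38.6 against 13.2 CPM (-1.55 [-1.94 to -1.17]), and Areg was higher at 3.92 against 13.8 CPM (1.82 [1.27 to 2.38]). Lrig3, of a family of transmembrane regulators of receptor kinases, was higher at 25.1 against 53.6 CPM (1.09 [0.85 to 1.33]). So was Dusp4, of the same family as Dusp6 (1.27 [0.44 to 2.10]), so the feedback genes did not all go the same way. The receptor gene Egfr had a ratio of 0.25 [-0.18 to 0.68], within counting error.

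Most members of the Notch and BMP lists passed neither limit. Of 15 Notch genes 2 were higher and 2 lower (median 0.11). Of 14 BMP genes 4 were lower, beside 11.7% of all measured genes, and 1 was higher, beside 17% (median -0.11). In sub-clusters 1 and 2 the medians were -0.079 and -0.35. The Notch target Nrarp was lower at 23.3 against 9.23 CPM (-1.33 [-1.82 to -0.88]), and Atoh1, the secretory fate factor that Notch represses, was higher at 7.52 against 28.3 CPM (1.91 [1.52 to 2.30]). In sub-clusters 1 and 2 the ratio of Atoh1 was 2.21. Id1, an inhibitor of helix-loop-helix factors and a BMP target, was lower at 324 against 108 CPM (-1.58 [-1.71 to -1.45]), while Id3 stood at 37.8 against 51.6 CPM (0.45 [0.22 to 0.67]).

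Cell cycle genes differed by phase. The 36 S phase genes included 6 that were lower and 1 that was higher, and their median of -0.23 turned to 0.034 in sub-clusters 1 and 2, 0.013 in thinned cells and 0.16 in the Y-bearing cells. The G2 and M phase list held 30 measured genes, 8 of them higher and 0 lower, with a median of 0.26, and 0.79 in sub-clusters 1 and 2. Birc5, encoding survivin, stood at 13.8 against 64.6 CPM (2.22 [1.95 to 2.50]), and the proliferation antigen gene Mki67 at 34.96 against 73.4 CPM (1.07 [0.87 to 1.27]). The kinesin gene Cenpe (1.29 [0.91 to 1.67]) and the tubulin gene Tubb4b (0.96 [0.87 to 1.06]) were higher as well.

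Not all mitotic genes followed Mki67. The cyclin-dependent kinase gene Cdk1 (0.23 [-0.053 to 0.52]), Top2a (-0.13 [-0.37 to 0.11]) and Ccnb2 (-0.12 [-0.51 to 0.25]) passed neither limit. Among S phase genes, Pcna, the replication clamp, was lower at 89.8 against 57.2 CPM (-0.65 [-0.84 to -0.46]), while Fen1, the flap endonuclease, was higher at 21.04 against 51.2 CPM (1.28 [1.03 to 1.54]). A Mki67 UMI was found in 8.73% of thinned WT and 15.2% of thinned KO kept cells, beside 6.14% and 8.10% in the goblet-marker cluster 2, at median depths of 12674.5 and 9241 UMIs. In sub-cluster 4, led by replication genes, Mki67 stood at 79.8 against 139 CPM.

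Immediate early genes, which cells switch on within minutes of growth factor or stress signals, had the lowest median of the pathway lists. Of 27 measured genes 16 were lower and 2 higher (median -0.98), and in sub-clusters 1 and 2 the median was -1.30. Fosb, a partner of Jun in the AP-1 factor, stood at 115 CPM in WT and 12.2 CPM in KO cells (-3.24 [-3.63 to -2.87]), and Fos at 370.3 against 85.1 CPM (-2.12 [-2.27 to -1.98]). Atf3 was at 17.8 against 1.003 CPM (-4.15 [-5.78 to -2.90]), Dusp1, a phosphatase that switches off MAP kinases, at 31.5 against 2.21 CPM (-3.84 [-4.85 to -2.98]), and the nuclear receptor gene Nr4a1 at 17.04 against 2.01 CPM (-3.09 [-4.17 to -2.18]). Jun was lower at 504 against 264 CPM (-0.93 [-1.02 to -0.85]), whereas Jund (0.12 [0.03 to 0.22]) and Junb (-0.25 [-0.42 to -0.089]) passed neither limit. Klf4, a factor of differentiating epithelium, was higher at 75.5 against 121 CPM (0.68 [0.53 to 0.83]). The other member past the limit in that direction was Ier5.

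About as many interferon-stimulated genes were higher in the KO library as passed neither limit. Of 29 measured genes 15 were higher and 0 lower, with a median of 0.71, and 0.59 in sub-clusters 1 and 2. Isg15, a ubiquitin-like modifier, stood at 1.76 CPM in WT and 39.1 CPM in KO cells, from 22 and 195 UMIs (4.47 [3.83 to 5.18]). Of its KO UMIs 46.2% lay in 10 cells. Bst2, which tethers enveloped viruses, was at 16.6 against 51.6 CPM (1.64 [1.37 to 1.91]), and the RNA-activated kinase gene Eif2ak2 at 24.2 against 55.6 CPM (1.20 [0.96 to 1.44]). The master regulator gene Irf7 (2.44 [1.80 to 3.10]), Ifit1 (2.83 [2.03 to 3.69]) and Oas1a (0.77 [0.25 to 1.28]) were higher, while Irf1 (0.36 [0.055 to 0.67]) passed neither limit. In clusters 1 to 6 the median of the list was 0.77.

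Promoters of several of these members hold the letters of the interferon-stimulated response element, the site read by ISGF3 and other interferon regulatory factors. The letters GAAANNGAAA were searched on both strands in windows of 250 bases before to 50 bases after each start in RefSeq's promoters on GRCm38.p6, where matches can overlap. They were found in 1079 of 27025 genes (3.99%) and in 19 of the 34 list genes with a promoter there (55.9%). Of the members called higher 6 of 13 (46.2%) held them, and of those measured and not called 4 of 10 (40.0%), so the letters did not separate these groups. The promoter of Isg15 and the matched sites of Ifit1, Oas1a and Bst2 are shown because these 4 genes were higher and carry the letters before their start. Capitals mark the matches, which appear as GAAANNGAAA or, on the other strand, TTTCNNTTTC. A match is a description of these windows and not a bound site.
Isg15, chr4:156200819-156201068, minus strand: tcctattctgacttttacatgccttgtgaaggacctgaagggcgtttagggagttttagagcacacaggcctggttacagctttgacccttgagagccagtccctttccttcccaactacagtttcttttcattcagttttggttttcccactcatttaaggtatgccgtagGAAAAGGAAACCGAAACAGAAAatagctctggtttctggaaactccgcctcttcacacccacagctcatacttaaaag
Ifit1, chr19:34640775-34640804, plus strand: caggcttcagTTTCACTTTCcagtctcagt
Oas1a, chr5:120907523-120907552, minus strand: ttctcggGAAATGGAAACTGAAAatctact
Bst2, chr8:71537580-71537609, minus strand: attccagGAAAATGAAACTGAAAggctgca

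NF-κB genes past the limit were mostly higher. Of 28 measured genes 15 were higher and 3 lower, with a median of 0.72, and 0.52 in sub-clusters 1 and 2. The IκBα gene Nfkbia, both an inhibitor and a target of the pathway, stood at 104 against 293 CPM (1.49 [1.38 to 1.60]), and Nfkb2, the subunit of the noncanonical arm, at 4.40 against 26.5 CPM (2.59 [2.13 to 3.07]). Tnip3, an inhibitor of the pathway, was at 7.28 against 69.6 CPM (3.26 [2.92 to 3.61]). The cytokine genes Tnf (2.16 against 12.6 CPM, 2.55 [1.88 to 3.26]) and Ltb (0.640 against 16.3 CPM, 4.67 [3.62 to 5.93]) were higher, the latter from 8 and 81 UMIs. The 3 lower members were Traf1 (-1.88 [-2.98 to -0.93]), Nfkbiz (-1.11 [-1.59 to -0.66]) and Cxcl10 (-0.995 [-2.08 to -0.046]). The subunit genes Rela (0.50 [0.16 to 0.84]) and Nfkb1 (0.31 [0.064 to 0.55]) passed neither limit.

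Ccl20 depended on which cells were kept. It stood at 16.9 against 42.3 CPM (1.33 [1.04 to 1.61]) in the kept cells, with 57.3% of the KO UMIs in 10 cells. In sub-clusters 1 and 2 its ratio turned to -0.13, whereas in sub-cluster 3 it stood at 38.7 against 113 CPM. The rule removed the Ccl20-rich KO cells described above, so it bears on this ratio directly.

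Antigen presentation and antimicrobial genes were uneven. Of 20 class I genes 4 were higher, beside 17% of all measured genes, and 2 lower, beside 11.7% (median 0.31). H2-D1 stood at 116 against 205 CPM (0.83 [0.71 to 0.94]). Of 6 measured class II genes 3 were higher (median 0.65), and without the cells that held at least 3 immune or stromal UMIs 2 of 6 were (median 0.15). The invariant chain gene Cd74 stood at 21.04 against 71.03 CPM (1.76 [1.52 to 1.99]), and at 1.94 without those cells. Macrophages also express class II genes, and the markers C1qa (10.9 against 25.5 CPM) and C1qb (10.7 against 24.9 CPM) were higher in the KO library too. Of 17 antimicrobial genes 9 were higher and 5 lower (median 0.76, and 0.96 in sub-clusters 1 and 2). Reg3g, a lectin that kills Gram-positive bacteria, stood at 70.9 against 310.4 CPM (2.13 [2.01 to 2.25]), and the complement gene C3 at 4.16 against 34.5 CPM (3.05 [2.60 to 3.53]), whereas Wfdc2, a secreted protease inhibitor, was lower at 650.2 against 177 CPM (-1.88 [-1.98 to -1.78]).

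Reg3b, a lectin of the same family as Reg3g and its close copy, lay in few cells. It stood at 384 against 649 CPM (0.76 [0.69 to 0.82]), with 63.4% of the WT and 42.9% of the KO UMIs in 10 cells. Its direction turned to -0.37 in the whole of cluster 0 and to -0.41 in the Y-bearing cells. By sub-cluster it went both ways, from 178 against 1301 CPM in sub-cluster 2 to 2186 against 740.2 CPM in sub-cluster 5.

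Among p53 target genes, those past the limit were all higher. The transcription factor p53 halts the cell cycle and can start cell death after DNA damage and other stress. Of 27 measured targets 13 were higher and 0 lower, with a median of 0.70. In sub-clusters 1 and 2, 9 of 20 were higher, beside 15.5% of all measured genes there. Cdkn1a, the inhibitor p21 of cyclin-dependent kinases, stood at 32.1 against 129 CPM (2.003 [1.82 to 2.19]), and Bax, which opens the mitochondrial outer membrane, at 119 against 352 CPM (1.57 [1.47 to 1.67]). Gdf15 (4.48 against 39.9 CPM, 3.16 [2.72 to 3.61]), Zmat3 (10.4 against 41.9 CPM, 2.01 [1.69 to 2.34]) and Ccng1 (32.96 against 85.1 CPM, 1.37 [1.17 to 1.57]) were higher. Trp53 itself was at 134 against 96.9 CPM (-0.46 [-0.61 to -0.32]), and the puma gene Bbc3 at 10.6 against 14.2 CPM (0.43 [-0.0053 to 0.86]). The list's median in clusters 1 to 6 was 0.14, but 13 of 29 measured targets were higher there too, and 2 lower. Phlda3 had 4.07 in the kept cells and from 1.62 (cluster 6) to 5.32 (cluster 5) in the others. Gdf15 had 3.28 in cluster 2 and 3.09 in cluster 4, and 2.05 in cluster 3. The higher levels of these 2 genes were therefore not particular to the kept cells. Whether the medians differ beyond animal variation was not tested.

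Cell death and stress lists were closer to the background, which over all measured genes was 17% higher and 11.7% lower. Of 36 apoptosis and death receptor genes 9 were higher and 6 lower (median 0.12). The adaptor genes Fadd (1.07 [0.75 to 1.39]) and Tradd (0.87 [0.61 to 1.13]) and the kinase gene Ripk3 (0.67 [0.26 to 1.08]) were higher. The gasdermin genes Gsdmc4 (-1.58 [-1.81 to -1.37]) and Gsdmc2 (-0.998 [-1.19 to -0.80]), which are close copies and may share reads, were lower. Of 25 genes of the integrated stress response 8 were higher and 4 lower (median 0.29), with the serine synthesis gene Phgdh at 52.9 against 113 CPM (1.10 [0.93 to 1.26]) and Asns at 26.002 against 51.6 CPM (0.99 [0.75 to 1.23]). Of 27 endoplasmic reticulum chaperones 3 were higher and 0 lower (median 0.23), led by Hspa5 at 202 against 475 CPM (1.23 [1.15 to 1.32]). Of 16 cytosolic heat shock genes 1 was higher and 0 lower (median -0.086).

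**Figure D4:**
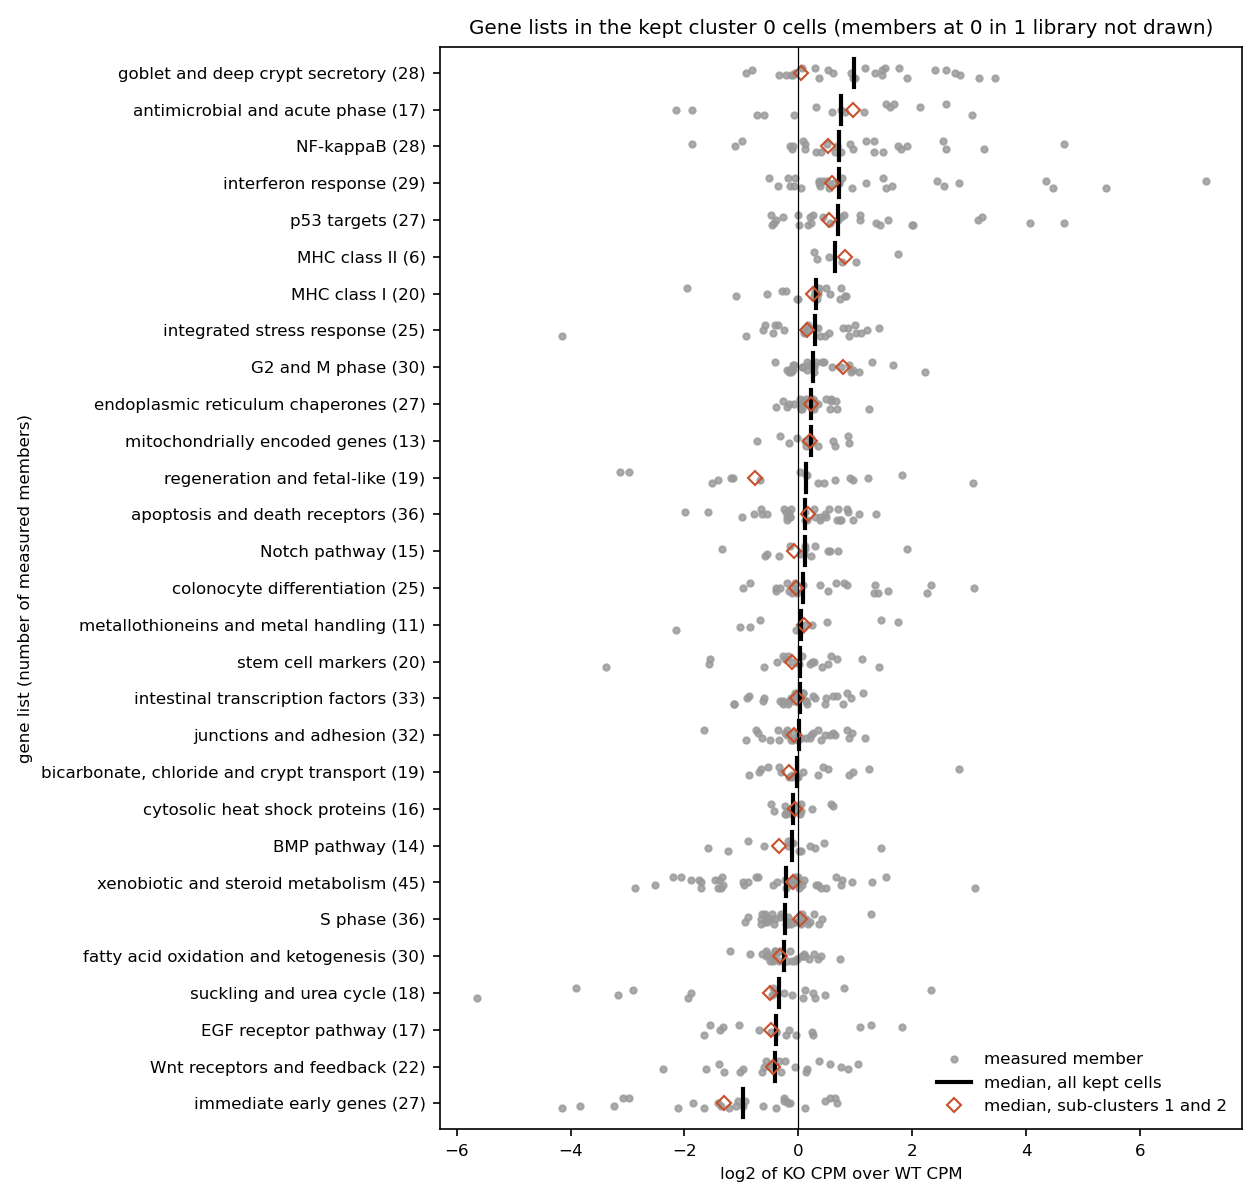
Log2 of KO over WT CPM (x axis) for the measured members (grey points) of the 29 gene lists (y axis) in the kept cells, with the median over all kept cells (black bar) and over sub-clusters 1 and 2 (open diamond). The goblet list has the highest median, 0.98, which is 0.04 in sub-clusters 1 and 2, and the immediate early list the lowest in both.

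Secretory genes were higher in the KO library, to an extent that depended on the sub-clusters included. Of 28 measured goblet and deep crypt secretory genes 17 were higher and 1 lower (median 0.98). In sub-clusters 1 and 2, where fewer were measured, 7 of 16 were higher and 3 lower (median 0.044). Over all measured genes there 15.5% were higher and 11.3% lower. Tff3, a trefoil peptide of mucus, stood at 109 CPM in WT and 777 CPM in KO cells (2.84 [2.75 to 2.93]), and 2.54 in sub-clusters 1 and 2. A Tff3 UMI was found in 31.2% of thinned kept KO cells and 32.5% of thinned cluster 4 KO cells, so its share was at the level of a cluster with colonocyte markers. Muc2, the gel-forming mucin, was at 133 against 171 CPM (0.36 [0.24 to 0.48]). Muc1 (6.0004 against 53.97 CPM, 3.17 [2.79 to 3.56]) and Fcgbp (12.96 against 68.2 CPM, 2.40 [2.12 to 2.67]) were higher. The share of kept cells in sub-cluster 5, led by goblet genes, was 3.93% in the WT and 7.32% in the KO library.

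Absorptive genes past the limit were more often higher than lower. Of 25 measured colonocyte genes 9 were higher, beside 17% of all measured genes, and 2 lower, beside 11.7%. Their median was 0.088, and -0.042 in sub-clusters 1 and 2. Car1 stood at 38.5 against 185 CPM (2.27 [2.10 to 2.43]), and within sub-cluster 3 at 146 against 536 CPM. The mucin-like protocadherin gene Cdhr5 (31.4 against 93.7 CPM, 1.58 [1.38 to 1.78]) and the uroguanylin gene Guca2b (67.1 against 177 CPM, 1.40 [1.26 to 1.54]) were higher. The guanylin gene Guca2a was lower at 146 against 81.3 CPM (-0.85 [-1.01 to -0.69]), as was the chloride-bicarbonate exchanger gene Slc26a3 at 9.44 against 4.82 CPM (-0.97 [-1.67 to -0.33]), which had 0.65 [0.27 to 1.04] in clusters 1 to 6 summed, 1.67 in cluster 4 and -1.66 in cluster 3. Car1 stood in few cells, since 4.51% of thinned WT and 9.08% of thinned KO kept cells held a UMI, beside 0.439% and 0.791% in cluster 2.

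Urea cycle and suckling-type genes were lower where they differed most. Enterocytes of suckling rodents make citrulline and take up milk proteins, and several of these genes are switched off at weaning. Of 18 measured genes 6 were lower and 2 higher (median -0.33, and -0.49 in sub-clusters 1 and 2). Besides Cps1 and Otc, Oat, which makes ornithine in the suckling gut, stood at 372 against 101 CPM (-1.88 [-2.01 to -1.75]). Amn, an uptake receptor subunit, was at 14.96 against 1.003 CPM (-3.90 [-5.54 to -2.65]), and Arg2, the mitochondrial arginase, at 5.44 against 0.602 CPM (-3.18 [-5.49 to -1.57]), from 68 and 3 UMIs. Ass1 (-0.42 [-0.86 to 0.015]) and Asl (-0.45 [-0.77 to -0.13]), the later enzymes of the cycle, passed neither limit. Fabp6, a bile acid carrier, was higher at 4.88 against 24.7 CPM (2.34 [1.88 to 2.81]).

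Genes that handle xenobiotics and steroids were lower more often than measured genes in general. Of 45 measured genes 19 were lower, beside 11.7% of all genes, and 7 higher (median -0.22). Of 32 measured in sub-clusters 1 and 2, 11 were lower, beside 11.3% of all measured genes there, and 6 higher, beside 15.5% (median -0.094). The efflux pump gene Abcg2 stood at 27.4 against 4.82 CPM (-2.51 [-3.17 to -1.91]), the sulfotransferase gene Sult1d1 at 141 against 55.2 CPM (-1.36 [-1.55 to -1.17]) and the glutathione transferase gene Mgst1 at 709 against 266 CPM (-1.42 [-1.50 to -1.33]). Ugt2b5 was lower at 55.4 against 30.1 CPM (-0.88 [-1.15 to -0.62]), and Adh1, an alcohol dehydrogenase, was higher at 39.4 against 339 CPM (3.10 [2.96 to 3.25]). Ces, Ugt2b and Cyp2c genes belong to families of close copies, so their counts are uncertain.

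Of 30 measured genes of fatty acid oxidation and ketogenesis 2 were lower and 1 higher (median -0.26). Of 28 measured in sub-clusters 1 and 2, 8 were lower, beside 11.3% of all measured genes there, and 1 was higher (median -0.31). Oxct1, which uses ketone bodies, was lower at 115 against 49.96 CPM (-1.20 [-1.40 to -1.01]), and Cpt2 was higher at 31.8 against 52.97 CPM (0.74 [0.51 to 0.97]). Of 13 mitochondrially encoded genes 4 were higher and 1 lower (median 0.23). The oxidase subunit mt-Co1 was lower at 22142 against 13406 CPM (-0.72 [-0.74 to -0.71]), and the dehydrogenase subunit mt-Nd2 was higher (0.88 [0.86 to 0.90]).

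The other lists had medians within 0.2 of 0. Their counts stand beside 17% higher and 11.7% lower over all measured genes. Of 33 measured intestinal transcription factors 6 were higher and 6 lower. The identity factor Cdx2 stood at 202 against 191 CPM (-0.081 [-0.19 to 0.027]), while Hnf4a was lower (-0.60 [-0.79 to -0.41]), as was the vitamin D receptor gene Vdr (-0.91 [-1.11 to -0.71]). The distal patterning genes Hoxb13 (1.14 [0.86 to 1.41]) and Hoxb9 (0.85 [0.73 to 0.98]) were higher. Of 32 junction genes 6 were higher, such as Cldn3 at 268 against 603 CPM (1.17 [1.10 to 1.24]), and 5 lower, such as Cldn8 at 56.3 against 17.9 CPM (-1.66 [-1.99 to -1.34]). Epcam, the gene of the sorting marker, stood at 1641 against 1291 CPM (-0.35 [-0.39 to -0.31]).

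Transport and repair genes went both ways as well. Of 19 crypt transport genes 4 were higher, such as the potassium channel subunit gene Kcne3 at 128 against 304 CPM (1.25 [1.15 to 1.35]), and 3 lower, such as the bicarbonate cotransporter gene Slc4a4 (-0.86 [-1.05 to -0.67]), and the chloride channel gene Cftr was at 132 against 121 CPM (-0.12 [-0.26 to 0.016]). Of 11 metal-handling genes 2 were higher and 4 lower, with the zinc importer gene Slc39a5 at 30.96 against 7.02 CPM (-2.14 [-2.68 to -1.64]). Of 19 regeneration and fetal-like genes 6 were higher and 7 lower. Ly6a, the gene of Sca-1, stood at 8.08 against 67.6 CPM (3.06 [2.74 to 3.40]), whereas Anxa1 was lower at 71.4 against 32.1 CPM (-1.15 [-1.41 to -0.91]). The median of that list was 0.13, and -0.75 in sub-clusters 1 and 2.

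Set against clusters 1 to 6, few genes were higher in the kept cells of both libraries. Of 11467 genes 80 (0.698%) were at least 2-fold higher in both, with 128 (1.12%) in the WT and 252 (2.20%) in the KO library. Dmbt1, a secreted scavenger receptor, stood at 1163 CPM in the kept WT cells and 418 CPM in clusters 1 to 6, and at 762 and 272 CPM in the KO library. S100g, a vitamin D-regulated calcium-binding protein, stood at 429 and 145 CPM in the WT and 372 and 122 CPM in the KO library. The log2 ratio of kept to other cells was 1.48 in the WT and 1.49 in the KO library for Dmbt1, and 1.56 and 1.60 for S100g. Clusters 1 to 6 were not alike for Dmbt1. In the KO library 56.2% (52.0 to 60.3) of thinned kept cells held a Dmbt1 UMI, beside 50.6% (46.1 to 55.2) in cluster 4, and the intervals overlapped. In the WT library the shares were 77.5% and 54.0%.

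Others among the 15 genes that led the kept cells were enzymes and signalling proteins. The carbonic anhydrase gene Car12, the steroid dehydrogenase genes Hsd3b3 and Hsd17b14, the apolipoprotein L gene Apol10a and the inflammasome sensor gene Nlrp6 were among them. So were Ntrk2, the receptor of brain-derived neurotrophic factor, and Prkg2, the cGMP-dependent kinase downstream of guanylin. Nlrp6 stood at 168 against 165 CPM (-0.027 [-0.14 to 0.09]) and Prkg2 at 33.5 against 30.9 CPM (-0.12 [-0.39 to 0.15]), so neither differed between the libraries by 1.5-fold. Folr1 was another of the 15, although its KO level was only 5.22 CPM, against 1.15 CPM in clusters 1 to 6.

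Several leading genes had like ratios in the kept cells and in clusters 1 to 6, and others stood away. Ratios in both sets come from the same 2 libraries, so their likeness is no independent evidence. Lgr5 had -3.39 in the kept cells and -3.28 [-3.50 to -3.05] in clusters 1 to 6, Fosb -3.24 and -3.32 [-3.48 to -3.17], and Ubd 7.15 and 6.57 [6.08 to 7.10]. Further from 0 in the kept cells were Cps1, with -5.65 and -3.80 [-4.13 to -3.48], and Ncf4, with 8.24 and 5.76 [5.17 to 6.41]. The chemokine gene Ccl9 (2.76 and 0.46), the calcium-activated channel regulator gene Clca4b (3.09 and 0.68), Hgfac, the activator of hepatocyte growth factor (3.07 and 0.89), and Itih5 (3.72 and 1.55) were further above the WT level in the kept cells than in clusters 1 to 6 summed. Single clusters differed from that sum. Clca4b had 2.998 [2.43 to 3.61] in cluster 3, beside 3.09 [2.50 to 3.71] in the kept cells, Itih5 had 2.85 in cluster 2, Hgfac 2.34 in cluster 4 and Ccl9 4.41 [2.52 to 6.88] in cluster 6.

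Guca2b had opposite directions in the kept cells and in clusters 1 to 6 summed. In the kept cells it stood at 67.1 against 177 CPM (1.40 [1.26 to 1.54]), and in clusters 1 to 6 at 159.9 against 103 CPM (-0.63 [-0.69 to -0.57]). By cluster it was lower in the KO library in the goblet-marker clusters, at 223 against 54.5 CPM in cluster 1 and 276 against 68.7 CPM in cluster 2. It was also lower in cluster 3, with a ratio of -0.64 [-0.76 to -0.52]. In cluster 4 it was higher, at 81.3 against 297 CPM, as in the kept cells. Mptx1, a mucosal pentraxin of goblet cells, had 0.35 [0.13 to 0.57] in the kept cells, below the 1.5-fold limit, and -1.76 [-1.78 to -1.74] in clusters 1 to 6. Its ratio was -0.61 in the whole of cluster 0 and -1.59 in sub-clusters 1 and 2, and in the kept cells 10 cells held 84.3% of its KO UMIs.

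Other genes had lower ratios in the kept cells than in clusters 1 to 6 summed. Ccl20 had 1.33 in the kept cells and 3.98 [3.74 to 4.22] in clusters 1 to 6; the rule removed Ccl20-rich cells from the former only. Ghr, the growth hormone receptor gene, stood at 22.4 against 4.82 CPM (-2.22 [-2.88 to -1.61]), beside -0.31 [-0.42 to -0.19] in clusters 1 to 6, and -1.21 and -1.17 in clusters 3 and 4. Ttr, the thyroid hormone and retinol carrier transthyretin, stood at 127 against 41.3 CPM (-1.62 [-1.83 to -1.41]), beside -0.26 [-0.31 to -0.22]. In cluster 4 its ratio was -1.50 [-1.62 to -1.37], close to that of the kept cells, in cluster 3 -0.83 and in cluster 2 0.59. Id1 had -1.58 and -0.56 [-0.62 to -0.51], and -1.93 in cluster 5. Fgfbp1, a carrier of fibroblast growth factors, had -0.45 [-0.63 to -0.28] and 0.63 [0.56 to 0.71], and C2cd4b -0.34 [-0.53 to -0.16] and 0.76 [0.68 to 0.85]. None of these differences has a replicate behind it.

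**Figure D5:**
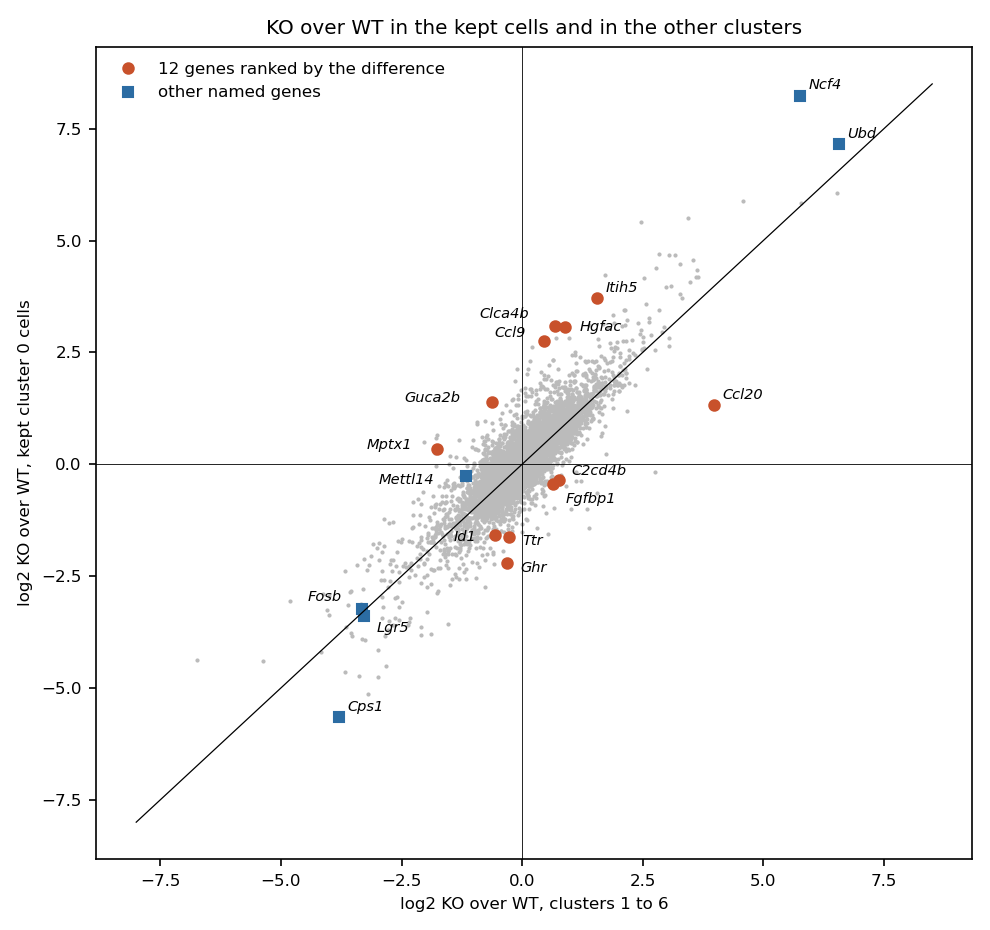
Log2 of KO over WT CPM in the kept cells (y axis) and in clusters 1 to 6 (x axis) for genes with at least 50 UMIs in each set (grey), with the line of equal ratios, the 12 genes ranked by the difference (orange) and 6 other named genes (blue). Guca2b lies at 1.40 in the kept cells and -0.63 in clusters 1 to 6, Ccl20 lies far below the line, and Lgr5, Fosb and Ubd lie close to it.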

How the data were processed

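The data are UMI counts per gene and cell from 1 library of Mettl14 WT and 1 of Mettl14 KO cells, deposited by the authors with a cluster number per cell. Reads were processed with bcl2fastq and Cell Ranger against mm10, per the submitters' processing notes, and versions are not given in the sources used here. The table holds 7863 cells and 17829 gene symbols.

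The members and all gene lists were chosen with earlier results of these data known. Counts of the kept cells were summed per library and divided by the library's total over those cells, giving CPM with exact Poisson intervals. Ratios carry exact conditional binomial intervals at 95%. Intervals and floors cover counting error only. A gene counted as measured had at least 50 UMIs over both libraries. A library at 0 was set at a floor of 3 counts for bounds on a fold, for calls past a fold limit and for medians of ratios. With 1 library per genotype no count model was fitted and no p-value was computed, and cells were not used as replicates. The ratio intervals were tried on simulated Poisson counts without variation between cells or animals, so that trial cannot speak to such variation. It did not include the fold and CPM limits of the calling rule.

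The genes named are the 12 highest and 12 lowest ratios, up to 3 each way per list, the 15 highest over clusters 1 to 6, the 6 each way that differed most from clusters 1 to 6, and the fixed markers. Not all of these are printed, 3 genes are not reported here, and other list members were named after their values were seen. Sub-clusters came from 2000 variable genes, 30 principal components, 15 neighbours and Leiden clustering at a resolution of 0.5. Doublets were not called. Cells were thinned to 3000 UMIs for shares, and shallower cells, 49 WT and 28 KO, were left out. Promoters are RefSeq's on GRCm38.p6, and gene coordinates come from the GRCm38 annotation. Genes with close copies, such as the Reg3, Ugt2b, Gsdmc and class I families, have uncertain counts. Alternatives covered scaling, gene filters, cell selection, depth, sex, possible doublets and the resolution. Python 3.11.15, numpy 2.4.6, scipy 1.17.1, pandas 2.3.3, scanpy 1.11.5, scikit-learn 1.9.0 and matplotlib 3.10.9 were used.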

Additional observations from a re-analysis of the deposited data

Results flagged for a closer look

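Guca2b, the uroguanylin gene, went opposite ways in the kept cells and in clusters 1 to 6 summed. Its log2 ratio of KO over WT was 1.40 [1.26 to 1.54] in the kept cells and -0.63 [-0.69 to -0.57] in clusters 1 to 6, a difference of 2.03 [1.88 to 2.18] by counting error alone. In cluster 4 alone it was 1.87 [1.75 to 1.997], the same direction as in the kept cells. Slc26a3, the chloride-bicarbonate exchanger gene, went the other way round, at -0.97 [-1.67 to -0.33] in the kept cells, from 118 and 24 UMIs, and 0.65 [0.27 to 1.04] in clusters 1 to 6. Clusters 1 to 6 were not alike for Slc26a3, with 1.67 [1.21 to 2.14] in cluster 4 and -1.66 [-3.39 to -0.25] in cluster 3, where it was lower in KO as in the kept cells. Each genotype is 1 library, so neither difference was tested.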

How the results depend on the processing

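The count of genes at least 2-fold higher in KO was 437 and that of lower genes 170. Without mitochondrial, ribosomal-protein and haemoglobin genes in the scaling they were 530 and 320, with a median of all measured genes of -0.049 in place of 0.01. With no minimum of UMIs or CPM they were 1347 and 733. In the other settings they stayed between 397 and 580 and between 169 and 249. Of 571 list medians recomputed, 415 moved by less than 0.1. Counting as turned the medians at least 0.2 from 0, 3 turned, all of the S phase list, to 0.013 in thinned cells, 0.16 in the Y-bearing cells and 0.034 in sub-clusters 1 and 2. Counting medians of any size 43 changed sign, among them, in sub-clusters 1 and 2, regeneration (0.13 to -0.75), Notch (0.11 to -0.079), stem cell markers (0.036 to -0.11) and colonocyte genes (0.088 to -0.042). Of 3082 recomputed ratios of named genes 41 changed sign, 7 of them of genes past the 1.5-fold limit. In the whole of cluster 0 Zg16 was -0.76, Clu 0.12 and Reg3b -0.37. Clu was 0.53 when only enzyme-rich cells were dropped, C1qa -0.10 in cells with at most 10% mitochondrial UMIs, Reg3b -0.41 in the Y-bearing cells, and Ccl20 -0.13 in sub-clusters 1 and 2. Inside that limit, Muc2 (0.36) was -1.68 and Mptx1 (0.35) -0.98 in the Y-bearing cells. The causes were not tested. At a resolution of 1 the kept cells split into 10 sub-clusters. No paired analysis was possible because each genotype is 1 library, and for the same reason no replicate could be left out. Genes under 50 UMIs were too shallow to describe.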

Other observations

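Ratios of some secretory and antimicrobial genes differed by the sex of the cells. In the Xist-bearing and in the Y-bearing cells, the ratio of Reg3g was 3.25 and 1.01, that of Fcgbp 2.92 and 0.33, that of Muc2 0.90 and -1.68, and that of Mptx1 1.63 and -0.98. Sub-cluster 5 held 1433 WT and 653 KO Muc2 UMIs in 42 and 44 cells, and Xist without a Y-linked UMI was found in 26.2% of these cells in the WT and 54.5% in the KO library. The part of these cells in the ratios by sex was not tested. Ubd had 6.86 and 8.36, and Isg15 5.04 and 3.34, higher in KO in both. The number of animals of each sex is not given, and these differences were not tested.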
